A study of Mus musculus with 12 samples.

Results

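The 10 genes described here encode the MHC class II antigen presentation machinery of the mouse: H2-Aa, H2-Ab1, H2-Eb1, Cd74, Ciita, H2-DMa, H2-DMb1, H2-DMb2, H2-Oa and H2-Ob. They were taken by name from a table of 35976 gene symbols, and all 10 were found in it. Polyadenylated RNA had been sequenced from CD45.2+ cells sorted from the bone marrow of C57BL/6 mice, in 12 libraries that formed 4 groups of 3. The BN1 libraries came from cells carrying BRD9-NUTM1, a fusion of a chromatin remodelling subunit to a protein of the male germ line. The MA9 libraries came from cells carrying MLL-AF9 and the ME libraries from cells carrying MLL-ENL, fusions of the histone methyltransferase MLL to partners that act in transcription elongation. The WT libraries came from CD45.2+ marrow cells for which no fusion is labelled. All 4 groups share the strain, the tissue and the CD45.2 sort. The sources used here do not give the age of the mice, how the leukemias were started, or whether each library stands for an animal of its own. The p-values below therefore measure only the spread between these libraries, which may be technical.

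MHC class II molecules are pairs of an alpha and a beta chain that show peptides from the endosomal pathway to CD4+ T cells. In bone marrow they are made mainly by B-lineage cells, dendritic cells and some monocytes and macrophages. The new pair is held by the invariant chain CD74, a fragment of which is exchanged for peptide with the help of H2-DM, and H2-DO restrains H2-DM. CIITA is the coactivator that class II genes need for transcription, and it acts on factors bound to a short promoter module, the X and Y boxes.

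The class II module could be read directly from the sequence of 6 members. RefSeq windows of GRCm38.p6 that run from 250 bases before to 50 bases after a gene's start were available for 7 members, all on chromosome 17. H2-Oa, H2-DMb2, H2-DMb1, H2-Ob, H2-Aa and H2-Eb1 each held TGATTGG, which contains the core ATTGG of the Y box, the site of the factor NF-Y. Each also held AAC, a part of the X box, with 25 to 28 bases between it and ATTGG. The sequences are shown because these 6 genes carry the same arrangement and yet changed by very different amounts. Each is written 5′ to 3′ on the strand of its gene, and the capitals mark AAC and TGATTGG.
H2-Oa, chr17:34092297-34092348, plus strand: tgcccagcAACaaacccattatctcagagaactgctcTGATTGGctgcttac
H2-DMb2, chr17:34145120-34145171, plus strand: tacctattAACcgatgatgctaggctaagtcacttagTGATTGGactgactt
H2-DMb1, chr17:34153091-34153142, plus strand: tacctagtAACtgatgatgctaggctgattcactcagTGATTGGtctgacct
H2-Ob, chr17:34238812-34238860, plus strand: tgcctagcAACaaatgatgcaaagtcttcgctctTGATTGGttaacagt
H2-Aa, chr17:34287859-34287910, minus strand: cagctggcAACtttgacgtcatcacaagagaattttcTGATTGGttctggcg
H2-Eb1, chr17:34305770-34305820, plus strand: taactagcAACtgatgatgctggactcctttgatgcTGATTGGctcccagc

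The 7 letters TGATTGG began between 45 bases (H2-Oa) and 92 bases (H2-DMb2) before the start on which each window is built. The stretch of H2-DMb2 lies inside the RefSeq span of that gene, whose annotated start is farther upstream, and the other 5 stretches lie outside the RefSeq spans of their genes. GENCODE starts H2-DMb1 and H2-Oa farther upstream, so that in its annotation the stretch of H2-DMb1 lies inside the gene and that of H2-Oa overlaps its start. The arrangement of AAC and TGATTGG was present on either strand in 0.46% of 32851 promoter windows of the same length, and TGATTGG alone in 7.82%. The core ATTGG stood in 37.4% of windows and in all 7 members with a window, so it is common among promoters. AACNGATG, a longer X box stretch that contains the AAC, was found on either strand in 2.32% of windows and in 3 members, H2-DMb1, H2-DMb2 and H2-Eb1. TGATTGG and the spacing were chosen after the sequences had been read. The stretches of H2-DMb1 and H2-DMb2, neighbouring genes, differed at 7 of 52 bases. H2-DMa had 2 windows, and neither held TGATTGG. A match of letters is a description of these windows and does not show that a factor was bound.

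Before the comparisons, the libraries and the tests were examined as follows. Library totals ran from 18292636 to 25732049 counts. Levels are CPM, read counts scaled to library size, and are given as mean ± SD over 3 libraries per group. Log2 fold changes are given with an approximate standard error, and called genes are those with a Benjamini-Hochberg adjusted p below 0.05 in edgeR's quasi-likelihood test over 15334 genes. Ptprc, which encodes CD45, stood at 498 ± 21.0 CPM in BN1, 382 ± 29.2 CPM in MA9, 324 ± 9.11 CPM in ME and 997 ± 78.7 CPM in WT (SD, n = 3 each). ME replicate 3 stood apart from its group: the mean chi-square per gene against the other ME libraries was 32.3 and 35.2, compared with 2.68 between those. Results for ME are given without it where the call of a member changed. The ME calls of genes outside the list of members were not examined without that library. All 10 members passed the filter on low counts, 5 of them with counts at the minimum or above in every library of every group, and Ciita only through WT.

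Most of the class II pathway was at a small remnant of the normal marrow level in all 3 leukemias, while H2-DMa and H2-DMb1 were not. In BN1, 8 of the 10 members fell, 1 (H2-DMb1) rose and 1 (H2-DMa) was not called, where 79.2% of all genes tested were called (40.8% lower, 38.4% higher). In MA9, 8 fell, H2-DMa rose and H2-DMb1 was not called, where 80.1% of all genes were called (40.8% lower, 39.3% higher). In ME, 8 fell, H2-DMb1 rose and H2-DMa was not called, where 79.2% of all genes were called (40.2% lower, 39% higher), and without ME replicate 3 the same number of members, 9, was called. Ciita is among the 8 in each comparison and passed the filter on low counts through WT alone, so its place there is no support for a fall. The 9 of 10 members called are close to the share of all genes called, so the number of calls by itself is not a result about these genes. Their median log2 fold changes were -7.43 for BN1, -3.72 for MA9 and -4.75 for ME, beside -0.01 for all genes tested in each comparison. The medians include Ciita and are given as a description. In BN1 the fitted Ciita value, -7.93, is a middle value on which the median rests. These 3 comparisons share the same WT libraries. In these bulk samples fewer cells of a type and less RNA per cell cannot be told apart.

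**Figure D1:**
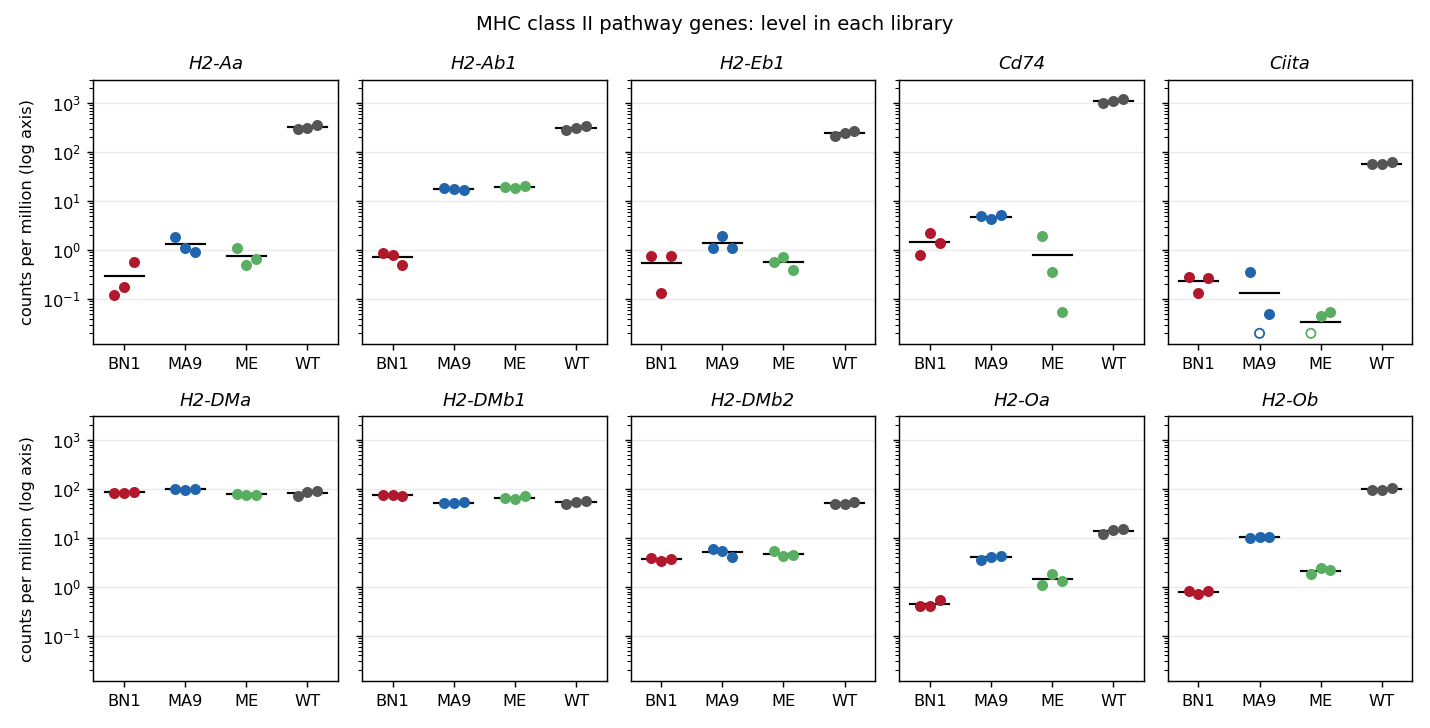
Level in CPM on a log axis of each of the 10 MHC class II pathway genes in each library, by group, with a bar at the mean of 3 libraries; open circles at the bottom are libraries without a count. H2-DMa and H2-DMb1 lie near the WT level in every group, and the other 8 genes lie below all WT libraries in every leukemia library.

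The genes of the classical chains fell steeply. H2-Aa encodes the alpha chain of the I-A molecule. It had 0.123, 0.180 and 0.574 CPM in the BN1 libraries, 1.86, 1.12 and 0.923 CPM in MA9, 1.11, 0.499 and 0.667 CPM in ME, and 297, 313 and 353 CPM in WT. Every leukemia library lay far below every WT library. The log2 fold change against WT was -10.02 ± 0.18 in BN1 (adjusted p = 8.3e-19), -7.95 ± 0.15 in MA9 (adjusted p = 1.9e-18) and -8.72 ± 0.16 in ME (adjusted p = 1.8e-18). The BN1 value rests on 3, 4 and 15 counts, and without BN1 replicate 3 it was -11.00.

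H2-Ab1, which encodes the beta chain that pairs with H2-Aa, behaved differently in the MLL fusion leukemias. It had 0.864, 0.810 and 0.498 CPM in BN1, 18.3, 17.4 and 16.6 CPM in MA9, 19.0, 18.1 and 20.7 CPM in ME, and 278, 310 and 333 CPM in WT. MA9 and ME overlapped with each other and stood between BN1 and WT without touching either. The log2 fold change against WT was -8.73 ± 0.11 in BN1, -4.14 ± 0.07 in MA9 and -4.00 ± 0.07 in ME (adjusted p = 1.1e-29, 9.8e-27 and 1.8e-26). BN1 was lower than MA9 by a log2 fold change of -4.59 ± 0.15 (adjusted p = 2.5e-20) and lower than ME by -4.74 ± 0.15 (adjusted p = 1.2e-20). Between MA9 and ME the log2 fold change was -0.14 ± 0.08 and was not called (adjusted p = 0.19).

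The 2 chains of I-A were therefore out of step in the MLL fusion leukemias. In BN1 the ratio of H2-Ab1 to H2-Aa read counts was 7.0, 4.5 and 0.867 on at most 21 counts of either gene. In MA9 the ratio was 9.86, 15.5 and 17.9, in ME it was 17.1, 36.4 and 31.1, and in WT it was 0.937, 0.988 and 0.945. All MA9 and ME libraries thus lay above every WT library, while 1 BN1 library lay below the WT range and the others above it. These are ratios of counts within a library, which scaling between libraries does not touch.

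H2-Eb1 encodes the beta chain of the I-E molecule. Mice of the C57BL/6 strain are known to make no I-E alpha chain, and the alpha chain pseudogene H2-Ea-ps had 0 counts in BN1, MA9 and ME and 5 counts over the 3 WT libraries. H2-Eb1 had 0.740, 0.135 and 0.766 CPM in BN1, 1.11, 1.98 and 1.12 CPM in MA9, 0.580, 0.726 and 0.389 CPM in ME, and 213, 246 and 269 CPM in WT. It thus fell with H2-Aa in all 3 leukemias, by a log2 fold change of -8.73 ± 0.19 in BN1, -7.40 ± 0.17 in MA9 and -8.70 ± 0.19 in ME (adjusted p = 1.3e-16, 2.9e-16 and 2.2e-16). The ratio of H2-Eb1 to H2-Aa counts was 0.75 to 6.0 in BN1, 0.595 to 1.77 in MA9, 0.522 to 1.45 in ME and 0.717 to 0.785 in WT, and the range of each leukemia overlapped that of WT. H2-Eb2, a further beta chain gene next to it and no member of the list, had 1 count in BN1 and 0 in ME, against 586 in WT. In counts scaled to depth it was 760-fold lower in BN1, with a 95% interval of 136 to 30100 for counting error only, and at least 212-fold lower in ME against a floor of 3 counts over the group.

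Cd74, the invariant chain that occupies new class II pairs, was the most abundant member in WT, in CPM and per kilobase. It had 0.782, 2.20 and 1.38 CPM in BN1, 4.97, 4.27 and 5.15 CPM in MA9, and 1.93, 0.363 and 0.0556 CPM in ME, against 1011, 1118 and 1237 CPM in WT. Every leukemia library lay far below the lowest WT library, and the ME libraries were spread widely, with 40, 8 and 1 counts. The log2 fold change against WT was -9.61 ± 0.32 in BN1 (adjusted p = 3.1e-09), -7.87 ± 0.28 in MA9 (adjusted p = 5e-09) and -10.43 ± 0.35 in ME (adjusted p = 3.2e-09). ME replicate 1 holds most of the ME counts, and without it the ME value was -12.24.

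Ciita, the coactivator that class II transcription depends on, was nearly without counts in the leukemias. It had 7, 3 and 7 counts in BN1, 7, 0 and 1 in MA9, and 0, 1 and 1 in ME, against 1122, 1027 and 1114 in WT. In CPM this was 0.230 ± 0.0832 in BN1, 0.133 ± 0.191 in MA9, 0.0336 ± 0.0296 in ME and 58.4 ± 2.81 in WT (SD, n = 3 each). Ciita passed the filter on low counts through WT alone, so a difference from WT was largely fixed by the filter and its fold changes against WT are given as a description, with no test. The fitted log2 fold change was -7.93 in BN1 and -8.79 in MA9. The MA9 value rests on replicate 1 for 7 of its 8 counts; it was -10.98 without that library and -8.16 without MA9 replicate 2. In ME the 2 counts set against 3263 in WT correspond to a level 1770-fold lower, with a 95% interval of 489 to 14600 for counting error only. Ciita overlaps the gene Dexi on the opposite strand and the sources used here do not say whether the counting used strand. H2-Eb1 overlaps the antisense gene Gm20513 in the same way, and Cd74 holds the microRNA gene Mir5107 on its own strand.

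H2-DM showed a divided pattern. H2-DMa encodes its alpha chain, and it had 84.0, 84.0 and 86.8 CPM in BN1, 99.6, 93.9 and 100.2 CPM in MA9, 79.6, 75.0 and 75.8 CPM in ME, and 72.9, 87.3 and 88.8 CPM in WT. Only MA9 lay above all WT libraries, and BN1 and ME overlapped WT. It rose in MA9 by a log2 fold change of 0.24 ± 0.06 (adjusted p = 0.00076). In BN1 the log2 fold change was 0.03 ± 0.06 (adjusted p = 0.6), and in ME it was -0.11 ± 0.06 (adjusted p = 0.098). The ME value was called lower with DESeq2 (-0.17, adjusted p = 0.028), with scaling by relative log expression (-0.17, adjusted p = 0.014) and without WT replicate 1 (-0.20, adjusted p = 0.0021). H2-DMa overlaps Brd2 on the opposite strand, a gene at 286 ± 4.46 CPM in BN1, 367 ± 14.2 CPM in MA9, 319 ± 7.76 CPM in ME and 346 ± 6.54 CPM in WT.

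H2-DMb1 encodes a beta chain of H2-DM. It had 75.2, 75.4 and 70.1 CPM in BN1, 52.5, 50.5 and 53.4 CPM in MA9, 63.7, 61.2 and 70.01 CPM in ME, and 50.05, 53.8 and 57.1 CPM in WT. BN1 and ME lay above every WT library, and MA9 lay within the WT range. It rose in BN1 by 0.46 ± 0.06 on the log2 scale (adjusted p = 1.4e-07) and in ME by 0.28 ± 0.06 (adjusted p = 0.00024). The MA9 log2 fold change was -0.04 ± 0.06 (adjusted p = 0.55).

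H2-DMb2, the other beta chain gene of H2-DM, fell in every leukemia. It had 3.78, 3.37 and 3.68 CPM in BN1, 5.88, 5.39 and 4.13 CPM in MA9, 5.42, 4.26 and 4.56 CPM in ME, and 48.8, 49.4 and 53.2 CPM in WT. The log2 fold change was -3.80 ± 0.12 in BN1, -3.29 ± 0.11 in MA9 and -3.41 ± 0.12 in ME (adjusted p = 2.3e-21, 2.9e-20 and 2.1e-20). The ratio of H2-DMb1 to H2-DMb2 counts was 19.9, 22.4 and 19.1 in BN1, 8.92, 9.36 and 12.9 in MA9, 11.8, 14.4 and 15.4 in ME, and 1.03, 1.09 and 1.07 in WT. The beta chain counts of each leukemia thus came mostly from H2-DMb1, and those of WT marrow were split almost evenly between the genes. Of the 50-base stretches of H2-DMb1 transcripts, 27.2% also occur in H2-DMb2, and of those of H2-DMb2 24.8% occur in another gene, 21.2% in H2-DMb1. Reads from shared stretches may be lost or placed with either gene, and the sources used here do not describe how such reads were handled, which leaves the exact ratio uncertain. The other 8 members share no 50-base stretch with another gene.

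**Figure D2:**
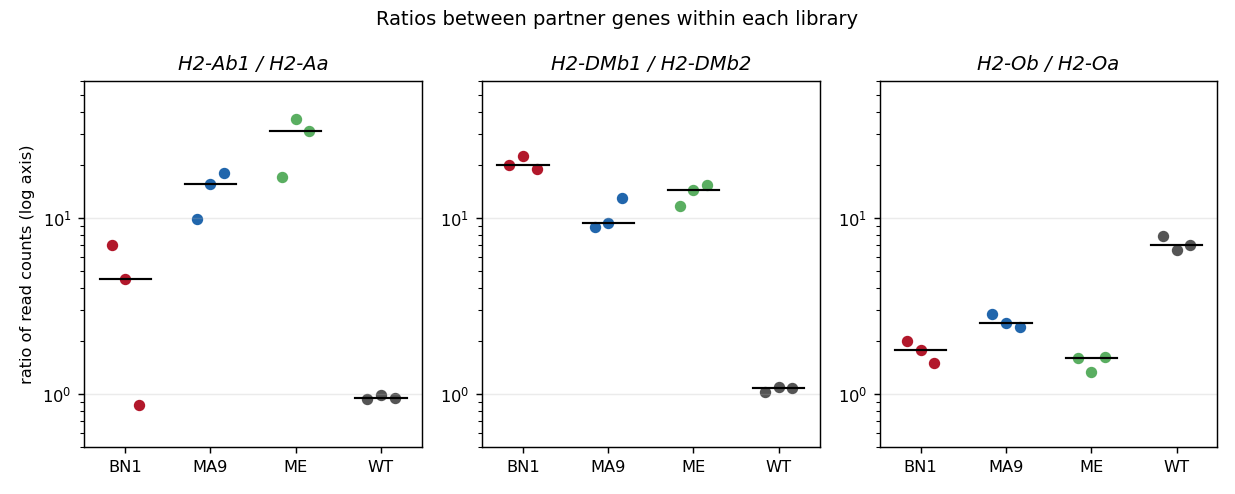
Ratio of read counts, on a log axis, between H2-Ab1 and H2-Aa, H2-DMb1 and H2-DMb2, and H2-Ob and H2-Oa in each library, with a bar at the median of 3 libraries. The first 2 ratios are above 4 in all leukemia libraries but BN1 replicate 3 for H2-Ab1 over H2-Aa, and close to 1 in WT, while H2-Ob over H2-Oa is lower in all leukemia libraries than in WT.

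H2-DO, the inhibitor of H2-DM, is formed by the products of H2-Oa and H2-Ob. H2-Oa, its alpha chain gene, had 0.411, 0.405 and 0.536 CPM in BN1, 3.52, 4.14 and 4.32 CPM in MA9, 1.11, 1.81 and 1.33 CPM in ME, and 12.1, 14.1 and 14.8 CPM in WT. H2-Ob, its beta chain gene, had 0.823, 0.720 and 0.804 CPM in BN1, 9.95, 10.4 and 10.4 CPM in MA9, 1.79, 2.40 and 2.17 CPM in ME, and 94.9, 92.5 and 104 CPM in WT. For both genes the 4 groups did not overlap, in the order BN1, ME, MA9 and WT from low to high. The log2 fold change of H2-Oa was -4.89 ± 0.21 in BN1, -1.77 ± 0.15 in MA9 and -3.25 ± 0.18 in ME (adjusted p = 4.4e-18, 2.4e-11 and 1.4e-15). That of H2-Ob was -6.94 ± 0.11 in BN1, -3.24 ± 0.08 in MA9 and -5.51 ± 0.10 in ME (adjusted p = 1e-27, 8.3e-24 and 1.1e-26). H2-Ob thus lost more than H2-Oa, and the ratio of H2-Ob to H2-Oa counts was 1.5 to 2.0 in BN1, 2.42 to 2.83 in MA9, 1.33 to 1.63 in ME and 6.55 to 7.87 in WT. The BN1 values rest on 10, 9 and 14 counts of H2-Oa and on 20, 16 and 21 counts of H2-Ob. H2-Oa did not reach the minimum of the low-count filter in every BN1 library. H2-Oa overlaps the antisense gene BC051537, and its reads cannot be told from that gene's without strand.

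**Figure D3:**
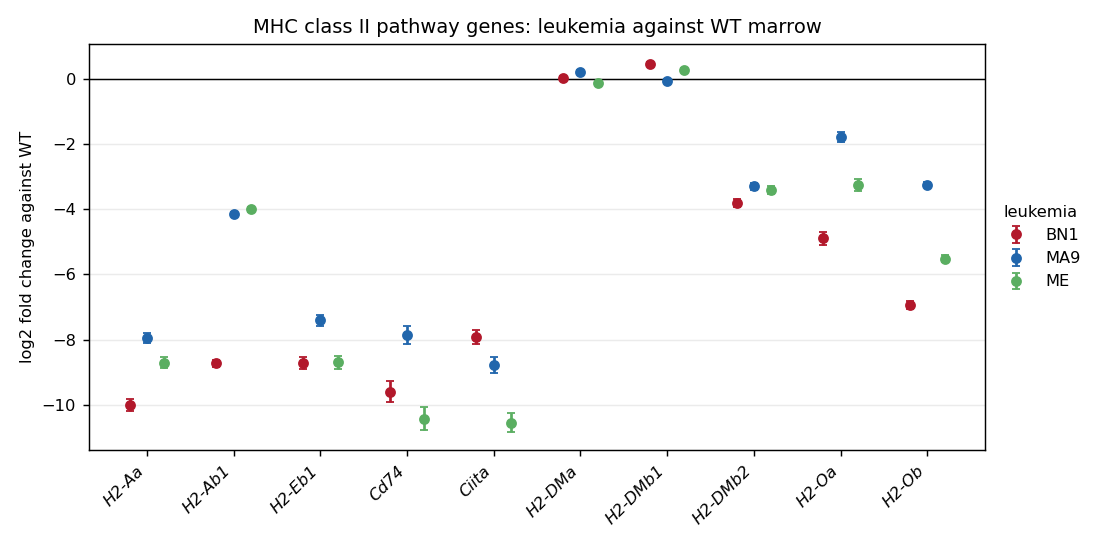
Log2 fold change of the 10 MHC class II pathway genes in BN1, MA9 and ME against WT, with bars for the approximate standard error; the line marks no change. H2-DMa and H2-DMb1 lie within 0.5 of the line and the other genes between -1.77 and -10.55, where the lowest value, Ciita in ME, is a fitted value that rests on 2 counts.

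The make-up of class II transcripts differed between leukemia and normal marrow. The 3 H2-DM genes held 97.1% to 97.6% of all member counts in the BN1 libraries, 79.2% to 80.4% for MA9 and 85.4% to 85.6% for ME, against 7.75% to 8.14% in WT. Cd74 held 0.468% to 1.32% for BN1, 2.26% to 2.62% for MA9 and 0.0316% to 1.11% for ME, against 47.4% to 48.1% in WT. H2-Ab1 held 0.301% to 0.517% in BN1, 8.44% to 9.26% in MA9, 10.9% to 11.8% in ME and 12.97% to 13.2% in WT.

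Levels of different genes can be compared per kilobase of exon. On this scale H2-DMb1 came first in every leukemia, at 52.4 ± 2.15 CPM per kilobase in BN1 (SD, n = 3 each), 37.1 ± 1.05 in MA9 and 46.3 ± 3.24 in ME, with H2-DMa in the next place. In MA9 these 2 overlapped. H2-Ab1 followed in MA9 and ME, at 14.4 ± 0.730 and 15.9 ± 1.09 CPM per kilobase, whereas in BN1 H2-DMb2 followed at 2.07 ± 0.122 CPM per kilobase. The levels of Cd74, H2-Ab1, H2-Oa, H2-Eb1, H2-Aa and H2-Ob in BN1 overlapped with their neighbours in the order. WT ran from Cd74 at 792 ± 80.0 CPM per kilobase through H2-Aa (285 ± 25.3), H2-Ab1 (253 ± 22.7) and H2-Eb1 (145 ± 16.9) to H2-DMb1 at 38.2 ± 2.52 CPM per kilobase. The libraries of H2-Aa and H2-Ab1 overlapped in WT, and so did those of H2-DMa, H2-DMb2 and H2-Ob in their order below H2-DMb1.

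The leukemias also differed from each other. BN1 against MA9 had 8 members lower, 1 higher and 1 not called, where 67.7% of all genes were called (34.9% lower, 32.8% higher). BN1 against ME had 5 lower, 3 higher and 2 not called, where 64.7% of all genes were called (33% lower, 31.8% higher). MA9 against ME had 5 higher, 1 lower and 4 not called, where 40.6% of all genes were called (20.2% higher, 20.4% lower). Each pair of these comparisons shares the libraries of 1 leukemia. The median log2 fold change of the members was -1.53, -0.21 and 1.03 in that order, and for all genes it was -0.01, -0.01 and 0.00. Without ME replicate 3, 6 members were called in BN1 against ME and 5 in MA9 against ME.

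Over the 3 contrasts together, the largest differences were in H2-Ab1 for BN1 against MA9 and ME, given above, and in the H2-DO genes for BN1 against MA9. In MA9 against ME the largest was that of Cd74. In BN1 against ME the fitted Ciita value of 2.63, on few counts, came after H2-Ab1 and before the H2-DO genes. H2-Ob was lower in BN1 than in MA9 by a log2 fold change of -3.70 ± 0.14 (adjusted p = 1e-18) and lower in BN1 than in ME by -1.43 ± 0.20 (adjusted p = 4.3e-07), and it was higher in MA9 than in ME by 2.27 ± 0.12 (adjusted p = 6.2e-15). H2-Oa followed the same order, with -3.12 ± 0.24 in BN1 against MA9 (adjusted p = 4.9e-12), -1.64 ± 0.29 in BN1 against ME (adjusted p = 1.8e-05) and 1.48 ± 0.20 in MA9 against ME (adjusted p = 7.3e-07). MA9 was the leukemia with the most transcripts of both H2-DO chains. For Cd74, MA9 was above ME by 2.56 ± 0.59 (adjusted p = 0.008) and BN1 below MA9 by -1.73 ± 0.50 (adjusted p = 0.013), which missed the threshold with DESeq2 (adjusted p = 0.058). BN1 against ME gave 0.83 ± 0.75 for Cd74 (adjusted p = 0.37); without ME replicate 1 it was 2.64 (adjusted p = 0.0077), and MA9 against ME was then 4.37.

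Differences in H2-Aa, H2-Eb1 and Ciita rest on few counts. H2-Aa was lower in BN1 than in MA9 by -2.07 ± 0.46 on the log2 scale (adjusted p = 0.00072) and lower than in ME by -1.31 ± 0.53 (adjusted p = 0.039). The BN1 libraries of H2-Aa lay below all MA9 libraries but overlapped ME. Without BN1 replicate 3 these values were -3.04 and -2.28, and the call against ME was lost without BN1 replicate 1 (adjusted p = 0.12), BN1 replicate 2 (adjusted p = 0.12), ME replicate 1 (adjusted p = 0.19) or ME replicate 3 (adjusted p = 0.066). The MA9 against ME value of H2-Aa, 0.76 ± 0.39 (adjusted p = 0.13), was called without ME replicate 1 (1.16, adjusted p = 0.045) and without the filter on low counts (0.76, adjusted p = 0.016). H2-Eb1 was lower in BN1 than in MA9 by -1.33 ± 0.43 (adjusted p = 0.012) and higher in MA9 than in ME by 1.30 ± 0.45 (adjusted p = 0.029). Leaving out MA9 replicate 2 ended both H2-Eb1 calls (adjusted p = 0.078 and 0.14), and the second also ended without ME replicate 1 (adjusted p = 0.077) or ME replicate 3 (adjusted p = 0.11). Ciita had 17 counts in BN1 and 2 in ME, a ratio of 7.11 in scaled counts with a 95% interval of 1.69 to 63.4 for counting error only, and it was called higher in BN1 (adjusted p = 0.012). That call was lost without ME replicate 1 (adjusted p = 0.058). For Ciita in BN1 against MA9, 17 against 8 counts, the log2 fold change was 0.86 ± 0.65 (adjusted p = 0.25) and became 3.06 without MA9 replicate 1 (adjusted p = 0.0036). In MA9 against ME, 8 against 2 counts gave a ratio of 3.82 with an interval of 0.761 to 36.9 (adjusted p = 0.19), called only without MA9 replicate 2 among the libraries left out (adjusted p = 0.039).

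The H2-DM genes, which were well covered by counts, differed between leukemias by small amounts. H2-DMa was lower in BN1 than in MA9 by -0.20 ± 0.06 (adjusted p = 0.0035) and higher in MA9 than in ME by 0.35 ± 0.06 (adjusted p = 2.5e-05). H2-DMb1 ran the other way, with 0.50 ± 0.06 in BN1 against MA9 (adjusted p = 3.9e-08) and -0.32 ± 0.06 in MA9 against ME (adjusted p = 0.00013). The ratio of H2-DMa to H2-DMb1 counts was 1.11 to 1.24 in BN1, 1.86 to 1.90 in MA9, 1.08 to 1.25 in ME and 1.46 to 1.62 in WT, so that MA9 lay above WT and the other leukemias below it. BN1 against ME gave 0.15 ± 0.06 for H2-DMa (adjusted p = 0.036), 0.18 ± 0.06 for H2-DMb1 (adjusted p = 0.01) and -0.39 ± 0.14 for H2-DMb2 (adjusted p = 0.019). The H2-DMa call was lost with upper-quartile scaling (adjusted p = 0.053) and without BN1 replicate 1 (adjusted p = 0.052), BN1 replicate 3 (adjusted p = 0.09), ME replicate 2 (adjusted p = 0.1) or ME replicate 3 (adjusted p = 0.07). The H2-DMb1 call was lost without ME replicate 2 (adjusted p = 0.068), and the H2-DMb2 call without BN1 replicate 2 (adjusted p = 0.068) or ME replicate 1 (adjusted p = 0.13). H2-DMb2 was lower in BN1 than in MA9 by -0.50 ± 0.14 (adjusted p = 0.0025), and MA9 against ME gave 0.11 ± 0.14 (adjusted p = 0.55).

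Neighbours within the class II region did not all change alike. In the GENCODE annotation of the same assembly, 9 of the 14 protein-coding genes of the region are class II chain genes, and 8 of those are members. The run from H2-Oa to H2-Eb2 places H2-DMa between Brd2 and H2-DMb2, and H2-DMb1 between H2-DMb2 and Psmb9. H2-DMb2, which fell, therefore lies between H2-DMa and H2-DMb1, which did not. Psmb9, Tap1, Psmb8 and Tap2, which serve class I presentation, lie between H2-DMb1 and H2-Ob. Tap2, a subunit of the peptide transporter, rose in all 3 leukemias, by a log2 fold change of 0.35 ± 0.05 in BN1, 0.91 ± 0.05 in MA9 and 0.30 ± 0.05 in ME. Tap1, its partner, fell, with -0.39, -0.71 and -0.75 in the same order. From H2-Ob to H2-Eb2 every gene of the run fell. In the RefSeq annotation the 8 members of the region run from 34092379 (start of H2-Oa) to 34316674 (end of H2-Eb1) on chromosome 17. Ciita lies on chromosome 16, from 10480014 to 10531064, and Cd74 on chromosome 18, from 60803849 to 60812652.

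**Figure D4:**
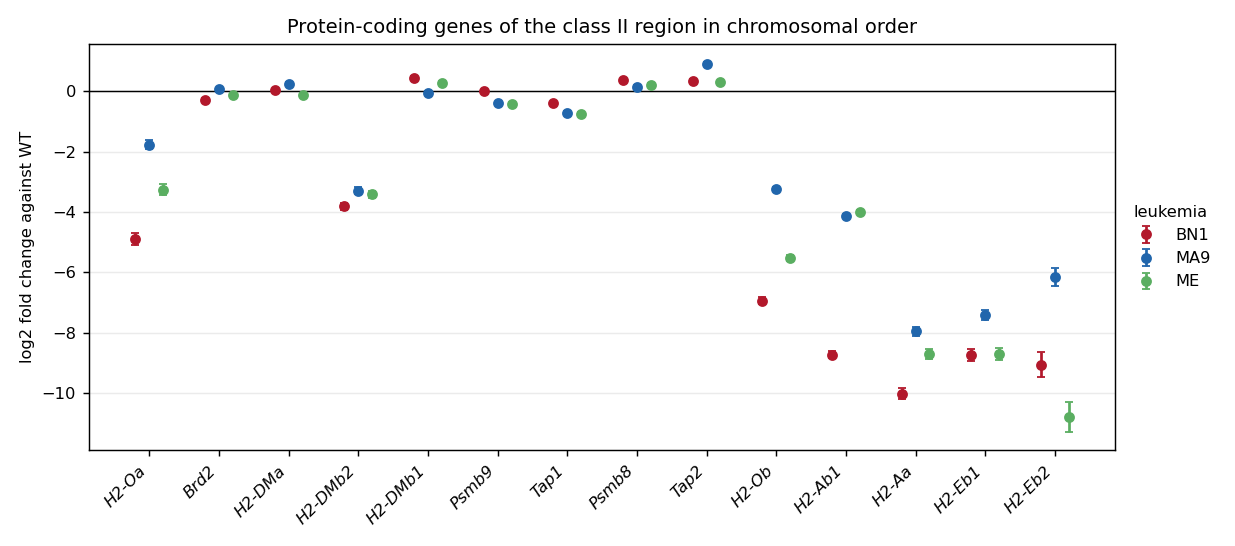
Log2 fold change in BN1, MA9 and ME against WT of the 14 protein-coding genes of the class II region, evenly spaced in chromosomal order, with bars for the approximate standard error. H2-Oa, H2-DMb2 and the 5 genes from H2-Ob to H2-Eb2 lie below -1.5 in each leukemia and the other genes within 1 of the line; the fitted values of H2-Eb2 in BN1 and ME rest on 1 and 0 counts.

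Apart from Irf4, the factors that act with or upstream of CIITA changed less than most of the class II genes. In MA9, however, Irf1 (-1.88) fell by more than H2-Oa (-1.77), and H2-DMa and H2-DMb1 changed little in any leukemia. Of 12 such factors, 3 rose, 6 fell and 3 were not called in BN1, 2 rose, 7 fell and 3 were not called in MA9, and 1 rose, 7 fell and 4 were not called in ME, with medians of -0.21, -0.23 and -0.24. Of all genes tested, 40.8% were called lower and 38.4% higher in BN1, 40.8% and 39.3% in MA9, and 40.2% and 39% in ME. Rfx5, Rfxap and Rfxank form the complex that binds the X box. Rfx5 stood at 57.6 ± 3.37 CPM in BN1, 37.3 ± 2.61 CPM in MA9, 31.4 ± 0.725 CPM in ME and 37.4 ± 1.60 CPM in WT. It rose in BN1 by 0.62 ± 0.07 on the log2 scale (adjusted p = 1.6e-09), fell in ME by 0.25 (adjusted p = 0.0016), and was not called in MA9 (-0.01 ± 0.07, adjusted p = 0.93). Rfxap was not called in any leukemia (log2 fold changes of 0.12, 0.10 and 0.04). Rfxank rose in BN1 by 0.23 ± 0.09 (adjusted p = 0.019), a call lost with scaling by relative log expression (adjusted p = 0.062).

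The Y box factor NF-Y has 3 subunits. Nfyb fell in all 3 leukemias, with log2 fold changes of -1.16 for BN1, -0.55 for MA9 and -0.52 for ME, and so did Nfya (-0.53, -0.18 and -0.23), while Nfyc rose (0.52, 0.34 and 0.45). Creb1, which binds within the X box, rose in MA9 by 0.20 ± 0.05 (adjusted p = 0.0012); its BN1 value of -0.07 became a call of -0.12 with scaling by relative log expression (adjusted p = 0.039). None of these factors was lower by more than Nfyb in BN1.

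Irf4, Irf8 and Spi1 act on Ciita promoters used in B cells and myeloid cells, and Irf1 acts on the promoter induced by interferon-gamma. Irf4 had 2.75 ± 0.323 CPM in BN1, 2.45 ± 0.372 CPM in MA9, 0.286 ± 0.176 CPM in ME and 82.6 ± 5.24 CPM in WT. It fell in each, with log2 fold changes of -4.91, -5.06 and -8.17 in that order (adjusted p = 4.1e-24, 4.7e-24 and 2.5e-25). Irf1 fell as well (-1.88, -1.88 and -1.62), as did Irf8 (-0.35, -0.57 and -0.90). Spi1, which encodes PU.1, fell in MA9 by 0.28 (adjusted p = 7.7e-06) and had log2 fold changes of -0.08 in BN1 and -0.06 in ME (adjusted p = 0.14 and 0.22), both called lower with scaling by relative log expression (adjusted p = 0.02 and 0.024).

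**Figure D5:**
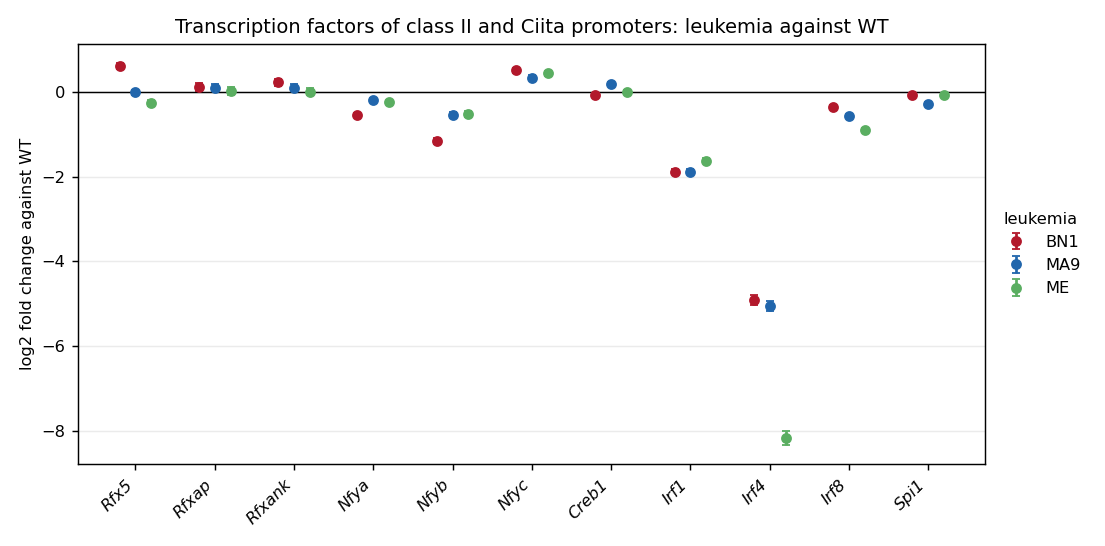
Log2 fold change in BN1, MA9 and ME against WT of 11 of the 12 transcription factors of class II and Ciita promoters, with bars for the approximate standard error. Irf4 lies at -4.91, -5.06 and -8.17, and the other factors shown lie between -1.88 and 0.62.

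The interferon-gamma signalling genes upstream of Ciita changed in both directions. Of 9 genes, which include the inhibitor Socs1 and the phosphatases Ptpn2 and Ptpn11, 3 rose and 6 fell in BN1, 2 rose, 6 fell and 1 was not called in MA9, and 2 rose and 7 fell in ME, where 40.8%, 40.8% and 40.2% of all genes were called lower. Their summed level was 1529 to 1587 CPM in BN1, 1189 to 1235 CPM in MA9, 1305 to 1380 CPM in ME and 1416 to 1469 CPM in WT, so that BN1 lay above WT and the other leukemias below it. Ifngr1, the ligand-binding receptor chain, stood at 774 ± 17.8 CPM in BN1, 530 ± 11.4 CPM in MA9, 636 ± 32.9 CPM in ME and 195 ± 5.84 CPM in WT, and rose by 1.99, 1.44 and 1.70 on the log2 scale. Ifngr2, the other receptor chain, fell (-0.61, -1.15 and -1.08), and so did the kinase genes Jak1 (-0.81, -1.23 and -1.15) and Jak2 (-1.21, -1.45 and -1.44). Socs1 fell too (-3.20, -1.95 and -2.04). Ptpn2 rose in BN1 by 0.59 and in MA9 by 0.56 and fell in ME by 0.31, and Ptpn11 rose in BN1 by 0.20 and in ME by 0.24. The chains of the receptor thus moved in opposite directions.

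Among 11 repressors and chromatin regulators of Ciita, 1 rose and 8 fell in BN1, 3 rose and 8 fell in MA9, and 3 rose and 7 fell in ME, where 40.8%, 40.8% and 40.2% of all genes were called lower. Their median log2 fold changes were -0.23, -0.23 and -0.26, beside -0.01 for all genes. Prdm1 changed most in the list, with 10 counts in BN1, 9 in MA9 and 12 in ME, against 193 in WT. Its fitted log2 fold changes of -4.60, -4.56 and -4.09 rest on these few counts and are given as a description. Smarca4, a remodelling ATPase, fell, with log2 fold changes of -0.77, -0.52 and -0.46, and so did Crebbp, a histone acetyltransferase (-0.54, -0.83 and -0.74). Dnmt1, the maintenance DNA methyltransferase, rose by 0.18, 0.69 and 0.60, and the histone deacetylase gene Hdac2 rose in MA9 by 0.72 and in ME by 0.63. DNA methylation and chromatin were not measured in these libraries.

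A list of 12 lysosomal genes changed in both directions. It holds enzymes that prepare peptides and degrade the invariant chain, and also Lamp1, Lamp2, the protease inhibitor Cst3 and the transcription factor Tfeb. Of the 12, 6 rose and 6 fell in BN1, 2 rose and 10 fell in MA9, and 2 rose and 8 fell in ME, with medians of -0.07, -0.87 and -0.43. In MA9 and ME the genes that rose were Lamp1 and Lamp2. Scaling by relative log expression ended the BN1 rises of Ctsb (adjusted p = 0.092) and Sppl2a (adjusted p = 0.13). It also ended the MA9 rise of Lamp2 (adjusted p = 0.067). The shares of all genes called lower were 40.8%, 40.8% and 40.2%. Ctss, the protease that trims the invariant chain in B cells and dendritic cells, stood at 270 ± 13.3 CPM in BN1, 87.0 ± 1.91 CPM in MA9, 130 ± 4.30 CPM in ME and 327 ± 6.76 CPM in WT. It fell in each, with log2 fold changes of -0.27, -1.91 and -1.33. Lgmn, an asparaginyl endopeptidase, fell (-3.78, -2.44 and -3.34), and so did Ifi30, a lysosomal thiol reductase (-1.42, -1.55 and -1.28). Lamp1, a lysosomal membrane protein, rose by 1.84, 1.03 and 1.16.

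Genes that act on class II at the cell surface and costimulatory genes were also read. Of 6 tested genes of class II turnover and transport, 2 rose and 4 fell in BN1, 1 rose and 4 fell in MA9, and 1 rose and 3 fell in ME. March1, a ubiquitin ligase that removes class II from the surface, fell, with log2 fold changes of -1.504, -3.45 and -1.80, and Cd83, which opposes it, had 8 counts in BN1, 2 in MA9 and 0 in ME, against 595 in WT. Of 7 tested costimulatory genes, 1 rose and 6 fell in BN1, and 6 fell in MA9 and in ME with 1 not called in each. Both lists stand beside 40.8%, 40.8% and 40.2% of all genes called lower in BN1, MA9 and ME. Cd86 stood at 5.18 ± 0.639 CPM in BN1, 0.897 ± 0.0499 CPM in MA9, 1.47 ± 0.188 CPM in ME and 11.7 ± 0.526 CPM in WT. Cd40 had 173 counts in BN1, 115 in MA9 and 3 in ME, against 792 in WT. Cd274, which encodes the inhibitory ligand PD-L1, rose in BN1 by 1.07 and fell in MA9 by 1.40 and in ME by 1.03.

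Markers of B cells and dendritic cells, which make class II in normal marrow, were mostly lower in the leukemias, where 40.8%, 40.8% and 40.2% of all genes were called lower in BN1, MA9 and ME. The 10 B cell markers were all called lower in each leukemia; their summed level was 4.18 to 4.77 CPM for BN1, 28.7 to 30.2 CPM for MA9 and 8.32 to 10.8 CPM for ME, against 1344 to 1516 CPM in WT. Among them, Blk, Ebf1 and Ms4a1 had no counts in MA9, and Blk, Ms4a1 and Pax5 none in ME. In MA9, Cd79b, a subunit of the B cell receptor complex, accounted for 17.65 ± 0.670 CPM of the sum. The order of the sums, BN1, ME, MA9 and WT, was that of H2-Oa and H2-Ob. Of 9 tested conventional dendritic cell markers, 8 fell and none rose in BN1, 8 fell and 1, Flt3, rose in MA9, and 9 fell in ME. Their sums were 20.02 to 21.8 CPM in BN1, 116 to 121 CPM in MA9, of which Flt3 held 106 ± 2.48 CPM, 22.7 to 31.9 CPM in ME and 183 to 191 CPM in WT. Clec10a held 17.7 ± 0.901 CPM of the BN1 sum, and Ccr7 and Cd209a had no counts in ME. All 8 plasmacytoid dendritic cell markers fell in each leukemia, with sums of 93.0 to 97.5 CPM in BN1, 129 to 131 CPM in MA9, 137 to 144 CPM in ME and 709 to 770 CPM in WT, and Klk1 had no counts in BN1 and MA9. In the leukemias these sums came almost wholly from Bst2, Runx2 and Tcf4. Siglech stood at 0.0278 ± 0.0243 CPM in BN1, 0.158 ± 0.0331 CPM in MA9 and 0.0161 ± 0.0279 CPM in ME, against 110 ± 2.86 CPM in WT.

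Monocyte and macrophage markers, whose cells can also make class II, changed in both directions, while markers of T and NK cells and of erythroid cells, which are not among its main sources in marrow, mostly fell as well. Of all genes tested, 38.4% were called higher and 40.8% lower in BN1, 39.3% and 40.8% in MA9, and 39% and 40.2% in ME. Of 10 monocyte and macrophage markers, 6 rose and 4 fell in BN1, 3 rose and 6 fell in MA9, and 3 rose and 7 fell in ME. The BN1 rise of Ccr2 was lost with scaling by relative log expression (adjusted p = 0.057). The ME fall of Cd68 was lost with upper-quartile scaling (adjusted p = 0.25). The marker sums were 6614 to 6968 CPM in BN1, 2738 to 2989 CPM in MA9, 3481 to 3818 CPM in ME and 2462 to 2818 CPM in WT. In BN1, F13a1 held 3433 ± 76.5 CPM and Ly6c2 2091 ± 85.5 CPM of the sum, while Cx3cr1, C1qa and C1qb fell in every leukemia. Of 8 T and NK cell markers, 7 fell and 1, Nkg7, rose in BN1, and 8 fell in MA9 and in ME. Their sums were 141 to 146 CPM for BN1, 22.0 to 26.2 CPM for MA9, 6.98 to 9.06 CPM for ME and 249 to 269 CPM for WT. In the leukemias Nkg7 held most of these sums, at 144 ± 3.05 CPM in BN1, 22.6 ± 2.04 CPM in MA9 and 6.41 ± 0.850 CPM in ME. The 6 erythroid markers all fell in each leukemia, with sums of 7.56 to 8.35 CPM in BN1, 9.45 to 11.4 CPM in MA9, 1.83 to 2.31 CPM in ME and 11355 to 14049 CPM in WT. The part of these cells in the class II changes was not tested.

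The gene pattern nearest to that of Cd74 was measured over 12 libraries as the root-mean-square difference of log2(CPM + 0.5), each gene centred on its own mean. Among the members, H2-Aa was nearest to Cd74, at 0.916 log2 units, and H2-Eb1 followed at 1.03. The 8 nearest genes outside the list included Ermap, Prss34, Alas2, Hemgn and Aqp1, at 0.952 to 1.0 log2 units. For Ciita the 5 nearest were Pkhd1l1, Slfn14, Gata1, Tspo2 and Gimap1, at 0.223 to 0.250 log2 units. These 10 genes were near 0 CPM in the leukemias, the highest being Alas2 at 0.846 ± 0.367 CPM in MA9, against 421 ± 33.1 CPM in WT. This likeness describes a split of leukemia and normal marrow that many genes share.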

How the data were processed

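Polyadenylated RNA from sorted CD45.2+ marrow cells was measured in 12 libraries, 3 each of BN1, MA9, ME and WT. The authors deposited raw read counts per gene symbol, which were used as given. Per the submitters' processing notes, the tools were HISAT2, featureCounts and DESeq2 and the build was mm10. The sources used here give no versions, no strand setting and no rule for multi-mapping reads. Per the labels' protocols, RNA was purified on RNeasy columns and libraries were made with a stranded TruSeq kit.

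The members and gene lists were chosen with earlier results of these data known. Genes were filtered with filterByExpr at its minimum count of 10, which left 15334; TMM factors were 0.928 to 1.051. A robust quasi-likelihood model was fitted in edgeR 4.0.16 to all 12 libraries with group as the only term, and 6 contrasts were tested with Benjamini-Hochberg adjustment. The biological coefficient of variation was 5.87%. The standard error is the log2 fold change divided by the root of the F statistic and understates counting error where counts are few. The test was run on simulated data first. Floors are 3 counts over a group, and intervals are exact binomial at 95%; both cover counting error only, and PCR duplicates are not independent molecules.

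Named genes were the 10 members, the factors, up to 3 called genes per direction, list and comparison against WT reaching 5 CPM in the higher group, and the genes most like Cd74 and Ciita by the measure given there, leaving out Gm and Rik symbols and receptor segments. H2-Ea-ps, Ifngr2, Jak1, Psmb9, Brd2, Cd79b, Ptprc and markers without counts were named in addition, and some genes that the rule names are not reported here. Same-numbered replicates of different groups did not deviate together (correlations of -0.081 to 0.062, none over 0.1), so the numbers were not used as pairs. The lowest mean chi-square between 2 libraries of a group was 2.005, above sampling noise. Alternatives were DESeq2 1.42.0, other scaling, other filters, 2 groups alone in the fit, a replicate block and leaving out each library. Positions and overlaps came from GENCODE vM21 and promoter windows from RefSeq, both on GRCm38, the assembly of mm10. R 4.3.3 and Python 3.11.15 were used.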

Additional observations from a re-analysis of the deposited data

Results flagged for a closer look

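The effect against WT differed between leukemias for 23 of the 30 pairings of a member with 2 leukemias, by the direct contrast of the 2 in edgeR's quasi-likelihood test. Values are log2 fold changes, with Benjamini-Hochberg adjusted p given with each in the report. In BN1 against MA9 they were -2.07 for H2-Aa, -4.59 for H2-Ab1, -1.33 for H2-Eb1, -1.73 for Cd74, -0.20 for H2-DMa, 0.50 for H2-DMb1, -0.50 for H2-DMb2, -3.12 for H2-Oa and -3.70 for H2-Ob. In BN1 against ME they were -1.31 for H2-Aa, -4.74 for H2-Ab1, 2.63 for Ciita, 0.15 for H2-DMa, 0.18 for H2-DMb1, -0.39 for H2-DMb2, -1.64 for H2-Oa and -1.43 for H2-Ob; the Ciita value is a fitted one that rests on 2 counts in ME. In MA9 against ME they were 1.30 for H2-Eb1, 2.56 for Cd74, 0.35 for H2-DMa, -0.32 for H2-DMb1, 1.48 for H2-Oa and 2.27 for H2-Ob. The background is high, with 67.7%, 64.7% and 40.6% of all genes called in these contrasts.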

How the results depend on the processing

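The number of members called stayed within 1.5 times of the reported number under all 19 alternatives in each of the 6 comparisons: 9 in BN1 against WT and in MA9 against WT under every one, 9 to 10 in ME against WT, 8 to 10 in BN1 against MA9, 6 to 8 in BN1 against ME and 5 to 7 in MA9 against ME. With libraries left out in turn the ranges were 9 to 9, 9 to 9, 9 to 10, 8 to 10, 6 to 8 and 5 to 6. No called value changed sign. Of 1137 values of single genes under the alternatives, 1111 kept their side of the threshold, 18 lost it and 8 gained it; those are named with the genes, and the cause was not tested. With the replicate block 9, 9, 9, 9, 8 and 6 members were called, the same numbers as without it, and no call of a member changed. With 2 groups alone in the fit, 3 of the 60 values were not tested, because the gene did not pass the filter there. Depth limits H2-Aa, H2-Eb1, Cd74 and Ciita in the leukemias, where single libraries held 0 to 106 counts. It also limits H2-Ab1, H2-Oa and H2-Ob in BN1, where single libraries held 9 to 21 counts.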
